A study of Mus musculus with 14 samples.

Results

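The 45 genes described here make ribosomes. They encode subunits and factors of RNA polymerase I, proteins of the nucleolus, the box C/D and box H/ACA particles that modify ribosomal RNA, and the factors that process the small and the large ribosomal subunit. They were taken from a list of gene symbols, each matched to 1 Ensembl identifier among the 46517 gene identifiers of the deposited expression table, and were placed in 6 role groups by their known functions. All 45 were found, and all had at least 1 FPKM (fragments per kilobase of transcript per 1 M mapped reads) in each of the 14 libraries, so none was lost to the filter on low values.

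The libraries came from lung tumours of 2 mouse models of small cell lung cancer, a neuroendocrine lung cancer. RPM mice carried Rb1 fl/fl, Trp53 fl/fl and a Cre-activated (lox-stop-lox, LSL) Myc allele with the T58A change, linked to luciferase (IRES-Luc), and gave 11 tumours: 9 were LSL/LSL for the Myc allele and 2 were LSL/+ (replicates 2 and 4). RPR2 mice carried Rb1 fl/fl, Trp53 fl/fl and p130 fl/fl (the gene Rbl2), with no Myc allele named, and gave 3 tumours. In both models Cre came from an adenovirus under the Cgrp promoter of neuroendocrine cells, so loss of Rb1 and Trp53 is shared by both and is not what the models differ in. All tumours were labelled untreated and were dissected by eye, so each library also holds RNA of other cells of the lung, and in such bulk tissue fewer cells of a type and less RNA per cell cannot be told apart.

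RNA polymerase I works in the nucleolus and transcribes the long precursor of most ribosomal RNA. Small nucleolar RNAs in box C/D particles guide the methylation of the precursor, those in box H/ACA particles guide its pseudouridylation, and large assemblies of processing factors cut and fold it while ribosomal proteins join. MYC proteins bind many of the genes for these factors in other cell types, and high output of ribosomes is a known trait of fast-growing tumour cells. The libraries were selected for poly(A) RNA, so the values describe the messenger RNAs of these factors and not ribosomal RNA itself.

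The table holds no read counts. From the steps between low values, depth was estimated at 17.4 to 19.9 M reads in RPM libraries and 21.2 to 22.9 M in RPR2 libraries, at which 3 reads on a transcript of 2 kb equal 0.0754 to 0.0862 FPKM in RPM and 0.0655 to 0.0708 FPKM in RPR2. Every value given below for a member lies far above that floor, which covers counting error only. Myc itself was at 48.4 to 384 FPKM (median 224) in RPM tumours, against 4.68, 6.83 and 13.6 FPKM in RPR2 tumours. Of its paralogs, Mycl was at 1.86 to 27.4 FPKM (median 10.5) in RPM tumours, against 197, 69.6 and 4.32 FPKM in RPR2 tumours, and Mycn at 0.550 to 3.96 FPKM (median 1.57) in RPM tumours, against 1.22, 2.21 and 30.3 FPKM in RPR2 tumours. The RPR2 values are given in the order of replicates 1, 2 and 3 throughout, and replicate 3 stood apart from the other RPR2 tumours. The summed FPKM of 12 neuroendocrine markers was 325 to 1780.0 in RPM, against 3600.0, 4924 and 72.9 in RPR2, and that of 8 alveolar type 2 markers was 15.6 to 892 in RPM, against 1256, 1984 and 51960 in RPR2. All 8 alveolar markers were lower in RPM by the test used below, and in the neuroendocrine list 1 marker was higher and 1 lower. Without RPR2 replicate 3, 4 of the alveolar and 6 of the neuroendocrine markers were lower and none was higher. Of 8 fibroblast and pericyte markers, 5 were higher and 1 was lower, with sums of 196 to 488 FPKM in RPM, against 278, 180.4 and 129 FPKM in RPR2. After each library was rescaled to an equal sum (TPM), 2 of them were higher and 1 was lower. In the other marker lists, 3 of 6 club and ciliated, 2 of 8 endothelial, 1 of 9 macrophage, 2 of 3 tested T and NK cell and 1 of 2 tested B cell markers were lower and none of these was higher. Among all tested genes 18.4% were higher and 22.8% were lower by the same test. The endothelial and macrophage counts are near or under that share and are not read as a result about these cells. No marker in any list was at 0 in all libraries, none of the 5 tested neutrophil or 4 tested erythroid markers passed, and the part of these cells in the results was not tested. Each result below that uses RPR2 was also computed without replicate 3. The library codes in the labels begin differently in RPM and RPR2, and what the codes stand for is not given in the sources used here. Anything that goes with the codes cannot be told apart from the model.

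Most of the ribosome biogenesis genes were higher in RPM than in RPR2 tumours. Of the 45, 41 were higher, 1 was lower (Utp20) and 3 did not pass the test (Ubtf, Imp3 and Noc3l), by limma on log2(FPKM + 1) with Benjamini-Hochberg adjustment over all 15719 genes tested and a threshold of 0.05. Among all tested genes, 18.4% were higher and 22.8% were lower by the same rule. The median difference of the 45 was 1.39 log2 units, with a range of -1.10 to 2.46, and the median over all tested genes was -0.06. In 33 genes the rise was at least 1 log2 unit. In 37 genes every RPM tumour lay above every RPR2 tumour, which held for 11.1% of all tested genes, and all 37 were among those called higher. RPR2 replicates 1 and 2 each lay below all RPM tumours in 41 members and replicate 3 in 39, against 19.5%, 19.8% and 35.1% of all tested genes. Without RPR2 replicate 3, 41 members were again higher and 1 lower, with a median of 1.53, where 16.2% of all genes were higher and 28.5% lower. Rescaling each library to TPM, a unit whose sum is equal in every library, left 35 members higher and none lower, with a median of 1.21, where 11.9% of all genes were higher and 22.8% lower. The median of all tested genes was -0.23 after that rescaling, 0.05 after median-of-ratios scaling and 0.08 after quantile normalization.

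**Figure D1:**
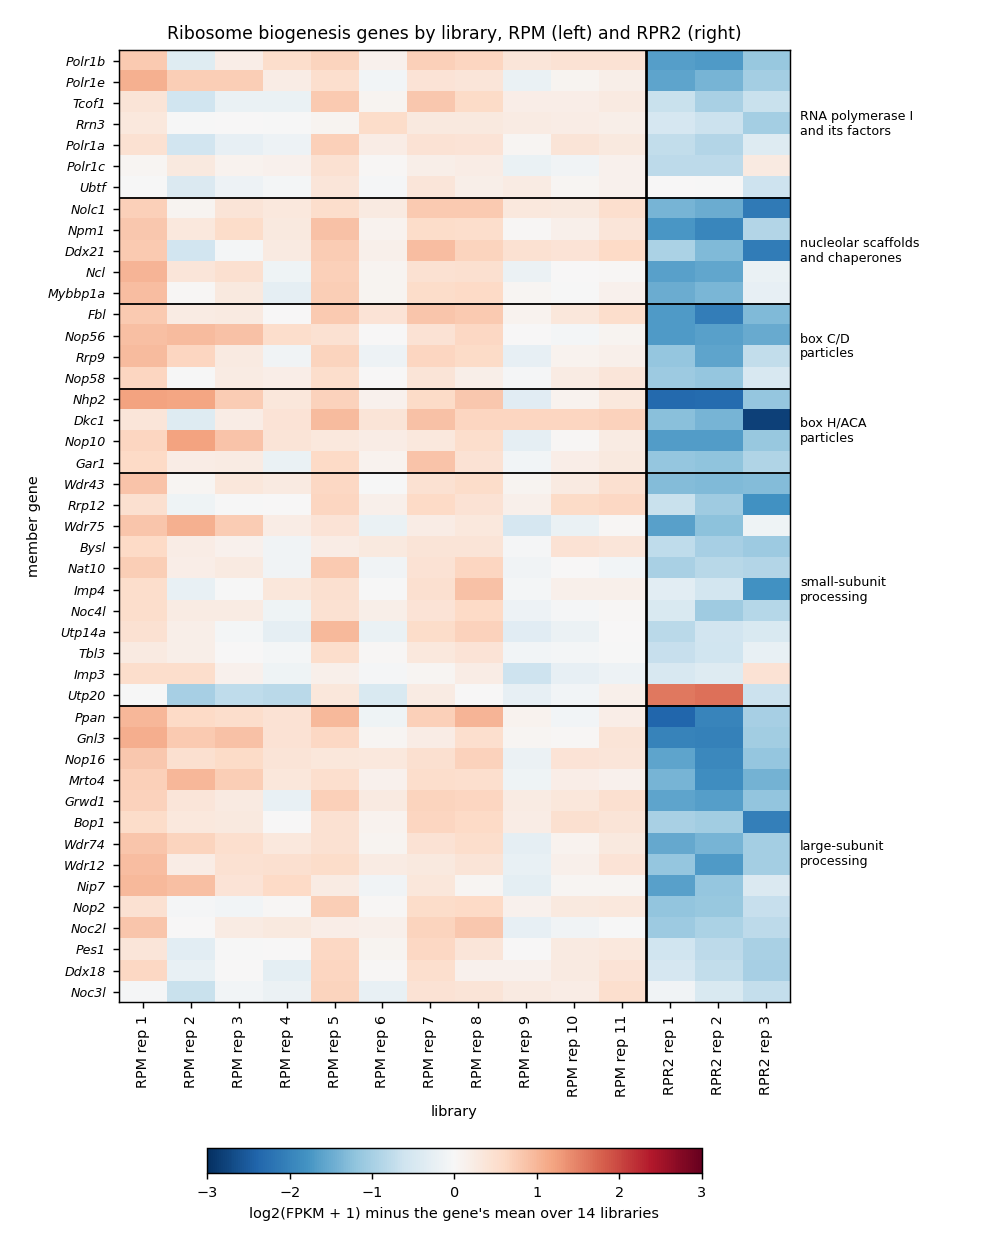
Each row is one of the 45 genes, grouped by role, and each column a tumour, with the 11 RPM tumours left of the 3 RPR2 tumours; colour gives log2(FPKM + 1) minus the gene's mean over the 14 libraries. In 37 genes all RPM tumours lie above all RPR2 tumours, and Utp20 is high in RPR2 replicates 1 and 2 only.

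**Figure D2:**
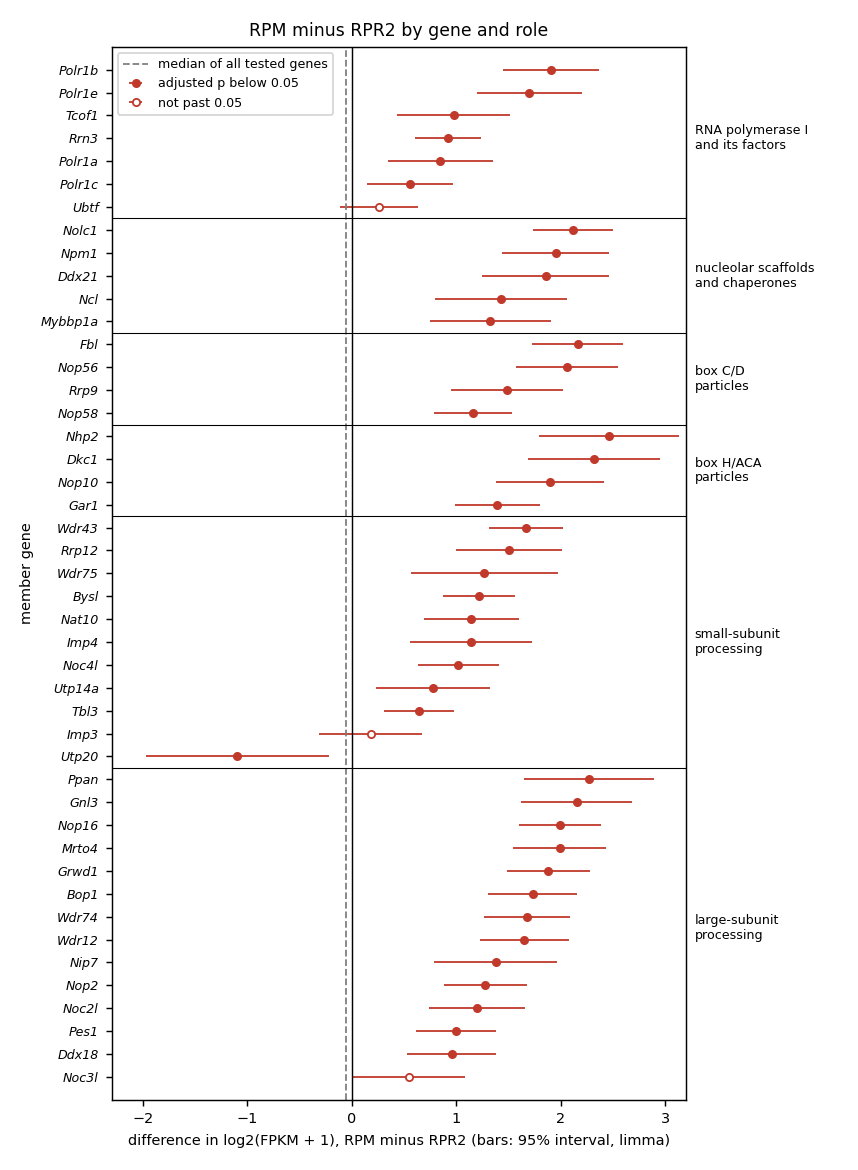
Points give the difference in log2(FPKM + 1), RPM minus RPR2, for each of the 45 genes in 6 role groups, with 95% intervals from limma (11 RPM and 3 RPR2 tumours); filled points passed an adjusted p of 0.05 and the dashed line is the median of all tested genes, -0.06. The points of 41 genes are filled and right of 0, and only Utp20 is filled and left of 0.

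Of the 7 genes of RNA polymerase I and its factors, 6 were higher in RPM, with a median difference of 0.92, but only 3 after TPM rescaling (Polr1b, Polr1e and Rrn3), with a median of 0.74. Polr1b, one of the pair of large subunits that form the active site, was at 16.98 to 38.8 FPKM (median 30.2) in RPM tumours, against 6.33, 6.09 and 9.61 FPKM in RPR2 tumours. All RPM tumours were above all RPR2 tumours, and the lowest RPM tumour was the LSL/+ replicate 2. The difference was 1.91 ± 0.21 (SE), adjusted p = 8.3e-06. Polr1e, an accessory subunit that acts in initiation, was at 17.2 to 42.7 FPKM (median 25.96) in RPM tumours, against 5.95, 6.95 and 9.28 FPKM in RPR2 tumours. Here too the groups did not overlap, with a difference of 1.70 ± 0.24 (SE), adjusted p = 5.5e-05. Rrn3, which joins the polymerase to its promoter factors, was at 23.99 to 36.03 FPKM (median 28.5) in RPM tumours, against 16.8, 15.1 and 11.5 FPKM in RPR2 tumours. Tcof1, which encodes the nucleolar protein treacle, was at 11.97 to 33.6 FPKM (median 21.8) in RPM tumours, against 11.5, 9.08 and 11.4 FPKM in RPR2 tumours. Neither overlapped between groups, and the differences were 0.92 ± 0.15 (SE) for Rrn3 and 0.98 ± 0.25 (SE) for Tcof1, but Tcof1 did not pass after TPM rescaling (0.81, adjusted p = 0.0695).

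Polr1a, the largest subunit, was at 7.61 to 19.8 FPKM (median 14.6) in RPM tumours, against 6.61, 5.98 and 8.75 FPKM in RPR2 tumours. RPR2 replicate 3 lay above the lowest RPM tumour, and the difference of 0.85 ± 0.23 (SE) (adjusted p = 0.0098) no longer passed without RPR2 replicate 2 (0.75, adjusted p = 0.0579) or after TPM rescaling (0.69, adjusted p = 0.0914). Polr1c, a subunit shared with RNA polymerase III, was at 54.3 to 86.4 FPKM (median 68.3) in RPM tumours, against 35.97, 36.1 and 75.4 FPKM in RPR2 tumours. RPR2 replicates 1 and 2 were below all RPM tumours and replicate 3 was inside the RPM range. Its difference of 0.56 ± 0.19 (SE) (adjusted p = 0.032) was not past the threshold without RPR2 replicate 1 (0.38, adjusted p = 0.197) or replicate 2 (0.38, adjusted p = 0.202), and it was 0.91 (adjusted p = 0.000276) without replicate 3. After TPM rescaling it was 0.37 (adjusted p = 0.0844). Polr1c also did not pass after median-of-ratios scaling (0.67, adjusted p = 0.0654) or with LSL/LSL tumours only (0.54, adjusted p = 0.0559). In an exact Wilcoxon test its adjusted p was 0.452. Ubtf, which binds ribosomal DNA and keeps it open, was at 45.9 to 80.7 FPKM (median 64.8) in RPM tumours, against 63.3, 62.5 and 40.3 FPKM in RPR2 tumours. RPR2 replicates 1 and 2 lay in the middle of the RPM range and replicate 3 below it. The difference of 0.26 ± 0.18 (SE), with a 95% interval of -0.12 to 0.64, did not pass (adjusted p = 0.26), though it did after median-of-ratios scaling (0.38, adjusted p = 0.0243). Without RPR2 replicate 3 the Ubtf difference was 0.05 (adjusted p = 0.843), and after TPM rescaling 0.06 (adjusted p = 0.889).

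All 5 genes for nucleolar scaffold proteins and chaperones were higher in RPM, with a median difference of 1.85. Nolc1, a chaperone of small nucleolar ribonucleoproteins, was at 61.8 to 101 FPKM (median 75.98) in RPM tumours, against 21.6, 20.2 and 12.7 FPKM in RPR2 tumours. No tumours overlapped between groups, and the difference of 2.11 ± 0.18 (SE) had the smallest adjusted p of all 45 genes (7.0e-07). Npm1, the histone and ribosome chaperone nucleophosmin, had the highest level of the 45 in every library, at 1178 to 2117 FPKM (median 1486) in RPM tumours, against 340.3, 296 and 621 FPKM in RPR2 tumours. Its groups did not overlap, and RPR2 replicate 3 lay between the other RPR2 tumours and the lowest RPM tumour. Npm1 differed by 1.95 ± 0.24 (SE), adjusted p = 1.9e-05. Ddx21, a nucleolar RNA helicase, was at 29.7 to 85.7 FPKM (median 61.2) in RPM tumours, against 22.6, 17.3 and 9.64 FPKM in RPR2 tumours. The groups did not overlap, and here RPR2 replicate 3 was the lowest of all 14 tumours, with a difference of 1.85 ± 0.28 (SE). Ncl, nucleolin, was at 409.6 to 948 FPKM (median 599) in RPM tumours, against 151, 158 and 406 FPKM in RPR2 tumours. Mybbp1a, a nucleolar regulator of ribosomal RNA synthesis, was at 78.8 to 180.1 FPKM (median 103) in RPM tumours, against 32.8, 35.9 and 79.4 FPKM in RPR2 tumours. RPR2 replicate 3 was just above the lowest RPM tumour for Mybbp1a and just below it for Ncl, far from the other RPR2 tumours. The differences were 1.43 ± 0.30 (SE) for Ncl and 1.32 ± 0.27 (SE) for Mybbp1a, and without that library they were 1.89 and 1.72.

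The 4 genes of box C/D particles were higher in RPM in all cases, and none overlapped between groups. Fbl, the methyltransferase fibrillarin, was at 186 to 327 FPKM (median 245) in RPM tumours, against 56.2, 42.8 and 72.98 FPKM in RPR2 tumours. Nop56, a scaffold of the particle, was at 295 to 591 FPKM (median 424) in RPM tumours, against 93.5, 98.9 and 107 FPKM in RPR2 tumours. The differences were 2.16 ± 0.20 (SE) for Fbl (adjusted p = 1.8e-06) and 2.06 ± 0.23 (SE) for Nop56 (adjusted p = 7.3e-06). Nop58, the partner scaffold of Nop56, was at 237 to 380.2 FPKM (median 287) in RPM tumours, against 113, 108 and 175 FPKM in RPR2 tumours. Rrp9, a protein of the U3 particle that acts in the first cuts of the precursor, was at 25.96 to 61.1 FPKM (median 37.6) in RPM tumours, against 13.3, 9.68 and 18.1 FPKM in RPR2 tumours. Nop58 had the smallest difference of the 4, 1.16 ± 0.18 (SE), and Rrp9 differed by 1.48 ± 0.25 (SE). RPR2 replicate 3 was the highest RPR2 tumour for all 4 genes.

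The box H/ACA particle had the highest median of the 6 role groups, 2.11, and all 4 of its genes were higher with no overlap. Without RPR2 replicate 3 its median was 1.95, close to 1.9 for box C/D particles and 1.89 for nucleolar scaffolds and chaperones. Nhp2, a core protein of the particle, was at 97.98 to 291 FPKM (median 186) in RPM tumours, against 23.95, 24.4 and 55.7 FPKM in RPR2 tumours. Its difference of 2.46 ± 0.31 (SE) was the largest of the 45 (adjusted p = 2.6e-05). Nop10, another core protein, was at 98.1 to 277 FPKM (median 149) in RPM tumours, against 36.6, 36.5 and 53.8 FPKM in RPR2 tumours. It differed by 1.90 ± 0.24 (SE), adjusted p = 2.7e-05. Dkc1, the pseudouridine synthase dyskerin, which also binds telomerase RNA, was at 56.5 to 144 FPKM (median 116) in RPM tumours, against 30.4, 27.8 and 9.77 FPKM in RPR2 tumours. RPR2 replicate 3 was the lowest tumour for Dkc1 but the highest RPR2 tumour for Nhp2, Nop10 and Gar1. The difference of Dkc1 was 2.31 ± 0.30 (SE), and 1.82 without that library. Gar1, which helps release the modified RNA, was at 71.2 to 149.6 FPKM (median 97.9) in RPM tumours, against 36.1, 35.0 and 43.8 FPKM in RPR2 tumours, a difference of 1.39 ± 0.19 (SE).

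Among the 11 small-subunit processing genes, 9 were higher, 1 was lower and 1 did not pass, with a median of 1.14, and after TPM rescaling 6 were higher and none lower. Wdr43, which in human cells belongs to the complex that starts processing while the precursor is transcribed, was at 39.6 to 72.8 FPKM (median 51.1) in RPM tumours, against 15.7, 15.4 and 15.8 FPKM in RPR2 tumours. The RPR2 tumours lay within 1 FPKM of each other, no RPM tumour overlapped them, and the difference was 1.66 ± 0.17 (SE), adjusted p = 3.1e-06. Wdr75, of the same complex, was at 29.5 to 90.7 FPKM (median 50.01) in RPM tumours, against 13.1, 17.4 and 38.9 FPKM in RPR2 tumours. RPR2 replicate 3 lay inside the RPM range, and the difference of 1.27 ± 0.33 (SE) (adjusted p = 0.0066) did not pass without RPR2 replicate 1 (0.95, adjusted p = 0.0603). Wdr75 also did not pass in an exact Wilcoxon test (adjusted p = 0.0963). Bysl, which encodes bystin, a factor that stays with the maturing small subunit, was at 9.93 to 16.7 FPKM (median 13.4) in RPM tumours, against 5.90, 4.88 and 4.51 FPKM in RPR2 tumours. Its groups did not overlap and its difference was 1.21 ± 0.16 (SE), adjusted p = 3.8e-05.

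Rrp12, needed in yeast for export of both subunits, was at 7.63 to 13.6 FPKM (median 11.7) in RPM tumours, against 4.93, 3.47 and 1.66 FPKM in RPR2 tumours. Nat10, which acetylates cytidines of the small-subunit RNA, was at 19.9 to 38.2 FPKM (median 25.2) in RPM tumours, against 10.6, 11.6 and 11.3 FPKM in RPR2 tumours. Noc4l, whose yeast counterpart acts in small-subunit assembly, was at 26.1 to 44.3 FPKM (median 34.3) in RPM tumours, against 20.6, 13.2 and 15.5 FPKM in RPR2 tumours. None of these overlapped between groups, and the differences were 1.51 ± 0.24 (SE) for Rrp12, 1.14 ± 0.21 (SE) for Nat10 and 1.02 ± 0.18 (SE) for Noc4l. Utp14a, a cofactor of a processome helicase, was at 16.1 to 41.8 FPKM (median 20.8) in RPM tumours, against 11.5, 13.5 and 14.9 FPKM in RPR2 tumours. Tbl3, a processome scaffold protein with WD repeats, was at 30.9 to 47.8 FPKM (median 33.7) in RPM tumours, against 20.01, 21.2 and 27.7 FPKM in RPR2 tumours. Both were separated between groups by narrow gaps. Utp14a differed by 0.78 ± 0.26 (SE) (adjusted p = 0.025), but not past the threshold without RPR2 replicate 1 (0.68, adjusted p = 0.103) or replicate 2 (0.79, adjusted p = 0.0693). Tbl3 had the smallest difference among members whose groups did not overlap, 0.64 ± 0.16 (SE), and did not pass after TPM rescaling (0.46, adjusted p = 0.0576), nor did Utp14a (0.60, adjusted p = 0.0932).

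Imp3 and Imp4 encode partner proteins of a complex that works with U3 RNA. Imp4 was at 25.9 to 56.4 FPKM (median 33.6) in RPM tumours, against 24.2, 20.4 and 7.86 FPKM in RPR2 tumours. Imp3 was at 46.3 to 103 FPKM (median 74.6) in RPM tumours, against 51.2, 54.6 and 97.3 FPKM in RPR2 tumours. Imp4 was lowest of all 14 tumours in RPR2 replicate 3, whereas Imp3 in that tumour was near the top of the RPM range. Imp4 differed by 1.14 ± 0.28 (SE) (adjusted p = 0.0041), by 0.68 without RPR2 replicate 3 (adjusted p = 0.0305), and by 0.96 after TPM rescaling, where it did not pass (adjusted p = 0.0532). Imp3 differed by 0.18 ± 0.23 (SE), with a 95% interval of -0.31 to 0.67 and an adjusted p of 0.57, and its sign turned to -0.016 after TPM rescaling. Without RPR2 replicate 3 the Imp3 difference was 0.47, adjusted p = 0.121. The balance of Imp4 over Imp3 did not pass between models, as given below with the other partners.

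Utp20 was the one member lower in RPM. It encodes a very large scaffold protein of the small-subunit processome, with a longest coding length of 8367 bases, the longest of the 45. It was at 3.67 to 10.9 FPKM (median 7.79) in RPM tumours, against 26.8, 28.4 and 5.01 FPKM in RPR2 tumours. RPR2 replicates 1 and 2 were far above all RPM tumours and replicate 3 was inside the RPM range. The difference was -1.10 ± 0.41 (SE) with an adjusted p of 0.044, close to the threshold, and the call was lost in 17 of 27 alternatives. Without RPR2 replicate 1 it was -0.74 (adjusted p = 0.24), without replicate 2 -0.70 (adjusted p = 0.265), and without replicate 3 -1.85 (adjusted p = 0.000396). The 2 high libraries have the highest neuroendocrine marker sums, 3600.0 and 4924 FPKM, against 72.9 FPKM in RPR2 replicate 3 and 325 to 1780.0 FPKM in RPM tumours. They also have the highest club and ciliated sums, 3472 and 25540 FPKM, against 841 FPKM in replicate 3 and 2.07 to 1533 FPKM in RPM tumours. Their endothelial sums, 328 and 413 FPKM, are the highest too, against 96.7 FPKM in replicate 3 and 47.6 to 113 FPKM in RPM tumours. The sums of the other marker lists did not set these 2 libraries apart in this way. The part of any of these cells in the difference was not tested.

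Large-subunit processing was the largest role group, and 13 of its 14 genes were higher, with a median of 1.66. Nop16, a nucleolar protein that joins large-subunit precursors in yeast, was at 54.96 to 109 FPKM (median 82.3) in RPM tumours, against 19.9, 15.6 and 27.1 FPKM in RPR2 tumours. Grwd1, whose yeast counterpart is a chaperone of a large-subunit ribosomal protein, was at 22.6 to 44.1 FPKM (median 34.4) in RPM tumours, against 8.20, 7.74 and 11.3 FPKM in RPR2 tumours. No tumours of the groups overlapped in either gene, with differences of 1.99 ± 0.18 (SE) (adjusted p = 1.6e-06) and 1.88 ± 0.19 (SE) (adjusted p = 3.0e-06). Mrto4, which in yeast holds the place of a ribosomal stalk protein, was at 98.9 to 219.5 FPKM (median 155) in RPM tumours, against 40.8, 29.1 and 39.9 FPKM in RPR2 tumours. Gnl3, the GTP-binding protein nucleostemin, was at 82.8 to 171 FPKM (median 109) in RPM tumours, against 19.3, 18.9 and 38.7 FPKM in RPR2 tumours. Ppan, related to a yeast assembly factor of the large subunit, was at 60.8 to 136 FPKM (median 96.7) in RPM tumours, against 12.2, 16.3 and 32.9 FPKM in RPR2 tumours. None overlapped between groups, and the differences were 1.99 ± 0.21 (SE) for Mrto4, 2.15 ± 0.25 (SE) for Gnl3 and 2.27 ± 0.29 (SE) for Ppan.

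The PeBoW complex, made of Pes1, Bop1 and Wdr12, is needed to cut the RNA of the large subunit from its precursor. Bop1 was at 33.6 to 52.7 FPKM (median 43.9) in RPM tumours, against 16.4, 15.6 and 7.28 FPKM in RPR2 tumours. Wdr12 was at 18.7 to 42.7 FPKM (median 28.9) in RPM tumours, against 9.31, 6.04 and 10.4 FPKM in RPR2 tumours. Pes1 was at 40.5 to 78.1 FPKM (median 60.8) in RPM tumours, against 32.9, 28.7 and 25.2 FPKM in RPR2 tumours. None overlapped, and the differences were 1.73 ± 0.20 (SE) for Bop1, 1.65 ± 0.20 (SE) for Wdr12 and 0.995 ± 0.18 (SE) for Pes1. Nop2, an RNA methyltransferase, was at 34.6 to 61.95 FPKM (median 45.3) in RPM tumours, against 15.5, 16.3 and 22.5 FPKM in RPR2 tumours. Wdr74, a processing factor of the large subunit, was at 39.8 to 85.6 FPKM (median 64.6) in RPM tumours, against 15.8, 17.7 and 22.98 FPKM in RPR2 tumours. Ddx18, an RNA helicase, was at 36.3 to 70.9 FPKM (median 49.03) in RPM tumours, against 30.9, 26.4 and 21.9 FPKM in RPR2 tumours. Again no groups overlapped, with differences of 1.28 ± 0.19 (SE) for Nop2, 1.68 ± 0.19 (SE) for Wdr74 and 0.95 ± 0.20 (SE) for Ddx18.

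Nip7, an RNA-binding assembly factor, was at 21.4 to 53.4 FPKM (median 31.7) in RPM tumours, against 7.89, 11.3 and 19.5 FPKM in RPR2 tumours. The groups were close but did not overlap, with a difference of 1.38 ± 0.28 (SE). Noc2l and Noc3l have yeast counterparts that act as partners in early large-subunit assembly. Noc2l was at 44.5 to 94.1 FPKM (median 60.6) in RPM tumours, against 24.4, 26.7 and 30.1 FPKM in RPR2 tumours. Noc3l was at 3.87 to 11.2 FPKM (median 8.0) in RPM tumours, against 6.12, 4.62 and 3.67 FPKM in RPR2 tumours. Noc2l was separated between groups, with a difference of 1.2 ± 0.22 (SE), while RPR2 replicates 1 and 2 lay inside the RPM range for Noc3l. Noc3l differed by 0.55 ± 0.25 (SE), with a 95% interval of 0.01 to 1.09 and an adjusted p of 0.095, and it passed in 5 of 27 alternatives: median-of-ratios scaling, quantile normalization, array weights, LSL/LSL tumours only, and without RPM replicate 2 (0.63, adjusted p = 0.0316).

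**Figure D3:**
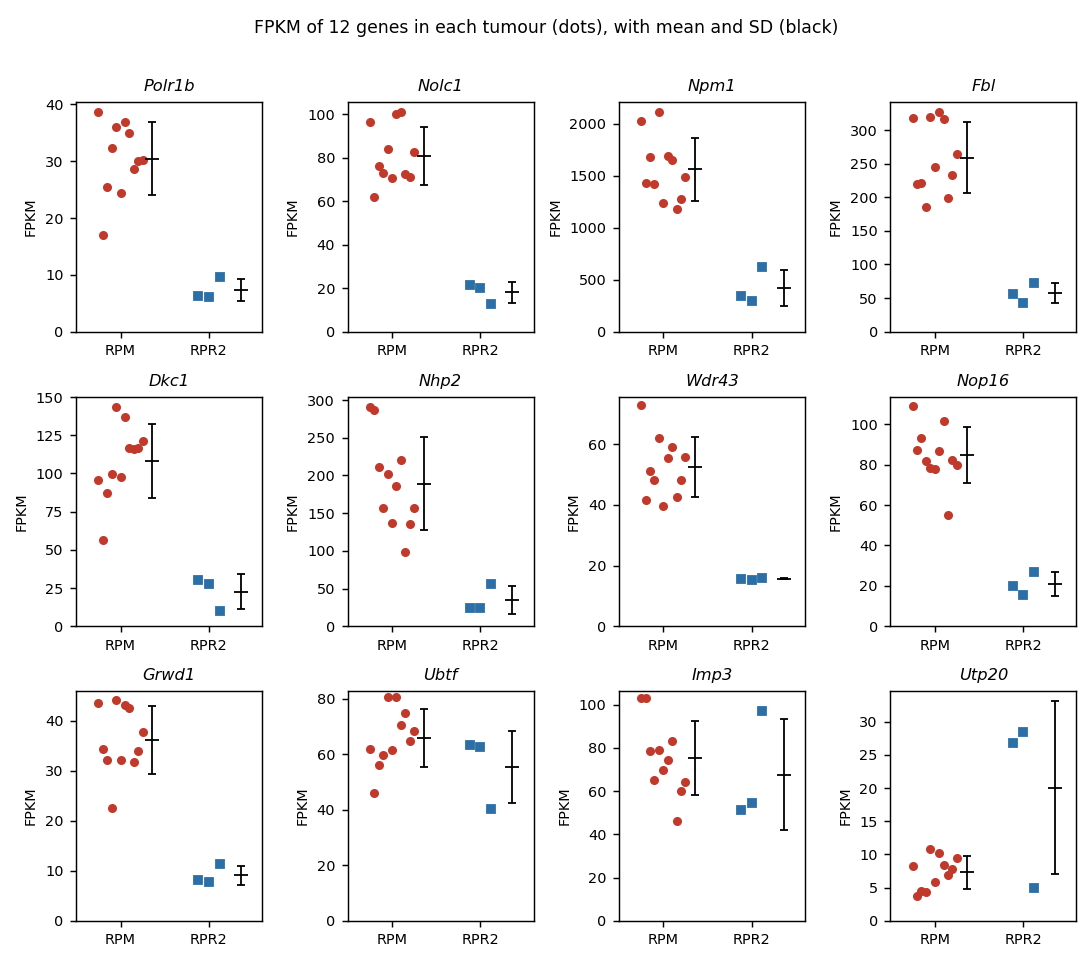
FPKM of 12 genes in each tumour, with RPM (red, n = 11) left of RPR2 (blue, n = 3) and the mean and SD of each group in black; each axis starts at 0. Wdr43 lies between 15.4 and 15.8 FPKM in all 3 RPR2 tumours, below every RPM tumour, while Ubtf, Imp3 and Utp20 overlap between groups.

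The 3 RPR2 tumours were not alike. Replicates 1 and 2 lay within 1.5-fold of each other in 43 of the 45 members, and the widest gap was 1.57-fold. Replicate 3 was above both in 28 members and below both in 13. The mean log2(FPKM + 1) over the 45 members was 5.58 to 6.24 in RPM tumours, against 4.50, 4.42 and 4.63 in RPR2 tumours, so the replicates of RPR2 lay close in the mean and apart in single genes such as Ncl, Dkc1, Imp4 and Utp20.

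Partner proteins of 1 complex are often needed in fixed proportions, and the balance of their messenger RNAs differed between models in 9 of 20 pairs. Many of these pairs share a gene, so they are not separate results. The share that would pass among pairs of other genes was not computed. The count therefore does not show that partners differ more than other genes do. The difference of log2(FPKM + 1) between partners was taken in each tumour for 20 pairs of 6 complexes, with the gene of the larger rise given first, and was compared between models by a two-sided exact permutation test of the 14 tumours, with 364 arrangements and a smallest possible p of 0.00549. These pairs were chosen after the values of the genes were seen. P-values were adjusted by Benjamini-Hochberg over the 20 pairs. Polr1b over Polr1c averaged -1.17 ± 0.37 (SD) in RPM, against -2.33, -2.39 and -2.85 in RPR2, a difference of 1.35 with an adjusted exact p of 0.0157. The tumours of the models did not overlap. Polr1b over Polr1a averaged 1.09 ± 0.22 (SD) in RPM, against -0.05, 0.02 and 0.12 in RPR2, a difference of 1.06 at the same adjusted p. Polr1e against each of the same partners differed by 0.85 (Polr1a) and 1.14 (Polr1c). Thus Polr1b and Polr1e stood higher relative to Polr1a and Polr1c in every RPM tumour than in any RPR2 tumour, while Polr1b against Polr1e did not pass (0.21, adjusted exact p = 0.575).

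In the box C/D particle, Fbl over Nop58 averaged -0.18 ± 0.22 (SD) in RPM, against -0.99, -1.32 and -1.25 in RPR2, and Nop56 over Nop58 averaged 0.53 ± 0.38 (SD) in RPM, against -0.27, -0.13 and -0.70 in RPR2. Neither pair overlapped between models, with an adjusted exact p of 0.0157 for each, and Fbl over Nop56 did not pass (0.11, adjusted exact p = 0.714). In PeBoW, Bop1 over Pes1 differed by 0.74 (adjusted exact p = 0.0157) without overlap, and Wdr12 over Pes1 by 0.65 (adjusted exact p = 0.0488). Imp4 over Imp3 differed by 0.96 (adjusted exact p = 0.141) and Noc2l over Noc3l by 0.65 (adjusted exact p = 0.101), and neither passed. In the box H/ACA particle only Nhp2 over Gar1 passed among 6 pairs, with a difference of 1.07 (adjusted exact p = 0.0412). Without RPR2 replicate 3, none of the 20 pairs passed: with 78 arrangements the smallest exact p is 0.0256, and the smallest adjusted p was 0.0513. In that comparison the difference of Polr1b over Polr1a was 1.11, of Polr1b over Polr1c 1.19, of Fbl over Nop58 0.97, of Bop1 over Pes1 0.48, and of Imp4 over Imp3 0.21.

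**Figure D4:**
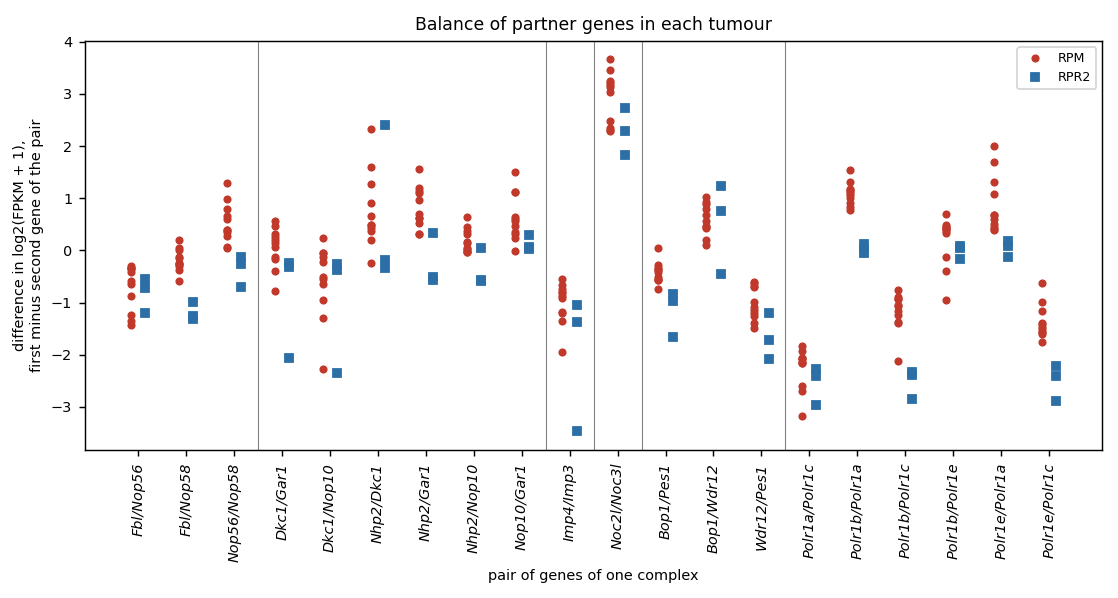
Each point is a tumour, RPM (red circles) left of RPR2 (blue squares), and the vertical axis is the difference in log2(FPKM + 1) between the first and the second gene of a pair of partners, for 20 pairs of 6 complexes. The models do not overlap for Fbl/Nop58, Nop56/Nop58, Bop1/Pes1, Polr1b/Polr1a, Polr1b/Polr1c, Polr1e/Polr1a and Polr1e/Polr1c.

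The DNA before the members' start sites was searched for the E-box CACGTG, the site bound by dimers of MYC and MAX. It was also searched for CACGCG or its reverse complement CGCGTG, a related site. Windows of 250 bases before to 50 after the annotated start came from RefSeq on GRCm38.p6, and 39 of the 45 members matched. Windows were not used for Bop1, Fbl, Npm1, Rrp12, Tbl3 and Tcof1. CACGTG, which reads the same on both strands, was in 8 of 39 members (20.5%), against 8.09% of 27025 genes with a window and 11.5% of the 11077 among them that were tested. Those 8 were Grwd1, Imp4, Mybbp1a, Nop2, Pes1, Rrn3, Utp20 and Wdr43. CACGCG or CGCGTG was in 15 of 39 members (38.5%), against 10.5% of all genes and 19.7% of tested genes, and neither motif contains the other. The members with CACGTG had a median difference of 1.21 and the 31 without it 1.43, and Utp20, the member that was lower in RPM, was among those with it. A match is a run of letters and does not show that a factor binds, and the part of these sites in the differences was not tested. The stretches below are shown as examples from members of 4 role groups, all on the plus strand, with the motif in capitals; the first has 2 E-boxes, the last has the related site.
Rrn3, chr16:13780454-13780686: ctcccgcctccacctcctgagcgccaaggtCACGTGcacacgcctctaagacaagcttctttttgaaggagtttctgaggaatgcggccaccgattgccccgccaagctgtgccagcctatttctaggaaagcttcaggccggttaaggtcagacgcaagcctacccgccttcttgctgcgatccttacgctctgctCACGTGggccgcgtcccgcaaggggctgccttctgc
Nop2, chr6:125131793-125131858: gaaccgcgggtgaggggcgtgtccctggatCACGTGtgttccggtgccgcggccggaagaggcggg
Imp4, chr1:34439678-34439743: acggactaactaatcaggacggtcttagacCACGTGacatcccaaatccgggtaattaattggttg
Pes1, chr11:3963947-3963999: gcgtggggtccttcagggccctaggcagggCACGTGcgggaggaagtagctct
Nolc1, chr19:46075792-46075857: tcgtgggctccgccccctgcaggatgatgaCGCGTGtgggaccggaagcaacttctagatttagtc
In these stretches the first base of the motif lies 215 and 48 bases before the start of Rrn3, 60 before that of Nop2, 121 before that of Imp4 and 25 before that of Nolc1, and at base 3 after the start in Pes1.

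Spread among the RPM tumours was then described. The members' coefficients of variation over the 11 tumours ran from 12.7% (Polr1c) to 34.7% (Wdr75), with a median of 22.5%, against 32.0% over all tested genes and 24.2% over the 8517 tested genes whose RPM mean was at least that of the lowest member. Replicate 1 was the highest RPM tumour for 16 members and replicate 5 for 14, and replicate 9 was the lowest for 19, replicate 2 for 12 and replicate 4 for 9. These tumours did not follow the order of Myc, which was 267 FPKM in replicate 1, 243 in replicate 5, 224 in replicate 9, 48.4 in replicate 2 and 234 in replicate 4, and highest, at 384, in replicate 7.

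By Myc allele dose, no member differed between the 9 LSL/LSL and the 2 LSL/+ tumours, and 0.00673% of all 14862 genes tested did, a single gene. The smallest adjusted p among members was 0.24 (limma), and at an unadjusted p under 0.05 there were 11 members and 2569 genes (17.3%). Differences ran from -0.56 for Nip7 to 0.82 for Utp20, with a median of 0.24, against 0.16 over all tested genes, and 31 of 45 members were above 0, as were 63.2% of all tested genes. Utp20 was at 3.67 and 4.36 FPKM in the LSL/+ tumours, the lowest and the next lowest of the RPM tumours. With 2 LSL/+ tumours the 95% interval of a single member is wide, for Utp20 0.24 to 1.39.

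Along the Myc level of the 11 RPM tumours, 4 members rose by limma's slope on log2(FPKM + 1) of Myc, against 1.76% of all 14862 genes tested. Ddx21 rose by 0.51 ± 0.08 (SE) log2 units per log2 unit of Myc (adjusted p = 0.040), Tcof1 by 0.46 ± 0.10 (SE) (adjusted p = 0.046), Dkc1 by 0.40 ± 0.08 (SE) (adjusted p = 0.044) and Polr1b by 0.38 ± 0.07 (SE) (adjusted p = 0.042). The median slope of the 45 was 0.11, against 0.10 over all tested genes, and 33 of 45 members had a slope above 0, as did 64.9% of all tested genes. All 4 calls were near the threshold. None passed without any one of RPM replicates 2, 3, 6, 7, 8, 9 or 10, without the 2 tumours farthest from the median of Myc (replicates 2 and 3), or after median-of-ratios or quantile scaling. The slopes themselves moved little without replicates 3 or 6 to 10: that of Polr1b was 0.38 without replicate 10 and 0.39 without replicate 7, and that of Ddx21 was 0.49 without replicate 3 and 0.51 without replicate 8. Without replicate 2 the slope of Ddx21 was 0.58 (adjusted p = 0.997) and that of Polr1b 0.37 (adjusted p = 0.997). Without replicates 2 and 3 together the slope was 0.21 for Dkc1 (adjusted p = 0.863) and 0.70 for Tcof1 (adjusted p = 0.816). After TPM rescaling 22 members rose, as did 25.6% of all tested genes.

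These differences inside RPM went with the length of the genes. Across the 45 members, which are not independent of each other, Spearman's rho with the longest coding length was 0.63 for LSL/LSL minus LSL/+ and 0.62 for the slope on Myc, against 0.36 and 0.49 across all tested genes with a coding length. The 19 members with at least 2000 coding bases had a median slope of 0.22 and the 12 with under 1200 had -0.06. For RPM minus RPR2 the correlation was -0.39 across members and -0.10 across all genes, and the medians were 1.27 for the long and 1.79 for the short members. For single tumours, each relative to the RPM mean, the correlation of members with length ran from -0.58 to 0.62. It was -0.58 in RPM replicate 2 and -0.53 in replicate 3, the tumours with the lowest Myc, and 0.62 in replicate 9. Across all genes it was -0.469, -0.349 and 0.315 in these tumours. In replicates 5 and 7 it was 0.526 and 0.475 across members, and 0.0939 and 0.255 across all genes. Length moved with the differences by allele and along Myc, and its part in them was not tested.

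**Figure D5:**
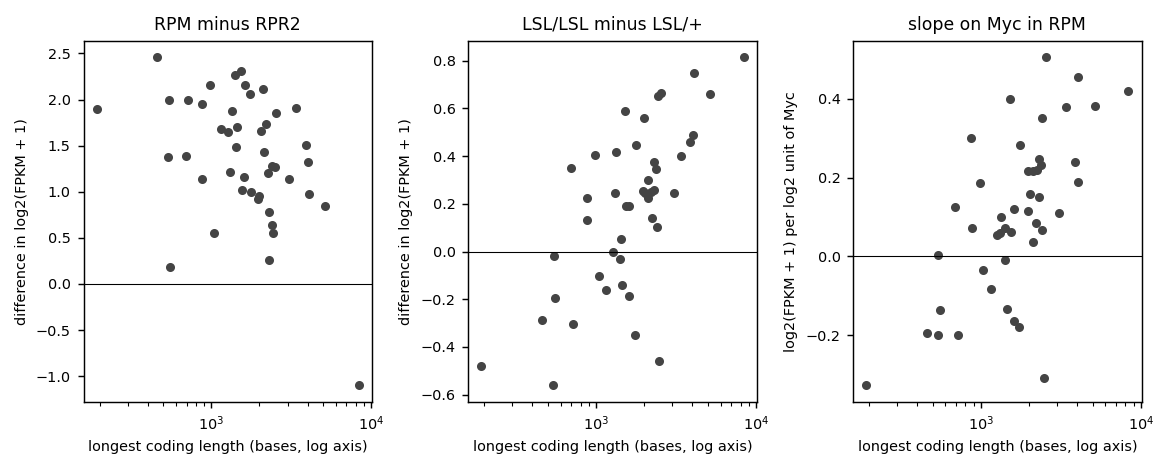
Each point is one of the 45 genes; the horizontal axis is the longest annotated coding length on a log scale and the vertical axes give the difference in log2(FPKM + 1), RPM minus RPR2 (left), LSL/LSL minus LSL/+ (middle), and the slope on Myc among RPM tumours (right). Short genes lie low in the middle and right panels (Spearman's rho 0.63 and 0.62) and somewhat high in the left panel (rho -0.39).

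Other genes of the same pathways, which are not among the 45, were also mostly higher: 105 of 162 tested were higher in RPM and 4 were lower, with a median of 0.75, and without RPR2 replicate 3 these counts were 106 and 3. Among all tested genes 18.4% were higher and 22.8% lower, and the counts below are to be read beside these shares. After TPM rescaling 72 of the 162 were higher and 3 lower, with a median of 0.57. By that scaling 11.9% of all tested genes were higher and 22.8% lower. Of 15 further polymerase I subunits and factors, 8 were higher and 1 lower, and 5 were higher and none lower after TPM rescaling. Polr1f, with the smallest p, was at 14.4 to 27.2 FPKM (median 16.8) in RPM tumours, against 7.59, 5.87 and 6.91 FPKM in RPR2 tumours, a difference of 1.25 ± 0.17 (SE). Ttf1, which ends transcription of ribosomal RNA genes, was at 1.92 to 6.34 FPKM (median 4.59) in RPM tumours, against 7.11, 8.07 and 6.82 FPKM in RPR2 tumours, a difference of -0.70 ± 0.25 (SE). Among 11 subunits of RNA polymerase III, which makes transfer RNA and the smallest ribosomal RNA, 6 were higher and none lower, and 3 were higher after TPM rescaling. Among 45 further small-subunit factors 28 were higher and none lower (19 higher after TPM rescaling), and the smallest p was that of Rcl1, a processome protein (1.44 ± 0.14 (SE)). Among 53 further large-subunit factors 39 were higher and 2 lower (24 and 2 after TPM rescaling), and the smallest p among the higher ones was that of Nifk (1.59 ± 0.16 (SE)). The lower ones were Efl1 and Sbds, partners that release a factor from the new large subunit, with Sbds at 32.5 to 44.5 FPKM (median 39.4) in RPM tumours, against 76.3, 58.3 and 60.9 FPKM in RPR2 tumours. Its groups did not overlap, and the difference was -0.74 ± 0.13 (SE).

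For assembly and modification of the box C/D and H/ACA particles, 8 of 13 genes were higher and none lower. Without RPR2 replicate 3, 8 were higher and 1 was lower, and after TPM rescaling 7 were higher and none lower. The first by p was Fbll1, a paralog of Fbl, at 2.21 to 17.4 FPKM (median 11.8) in RPM tumours, against 0.0300, 0.0600 and 0 FPKM in RPR2 tumours. RPR2 levels of Fbll1 were at or under the floor of 3 reads. Of 25 genes of the nuclear exosome and of RNase MRP, 16 were higher, the smallest p being that of Rpp25, at 3.75 to 5.74 FPKM (median 4.79) in RPM tumours, against 1.59, 0.720 and 0.640 FPKM in RPR2 tumours, and 1 was lower, Rpp21 at 13.7 to 42.1 FPKM (median 23.3) in RPM tumours, against 31.97, 41.1 and 44.8 FPKM in RPR2 tumours. Of the 11 genes of the MYC network, 4 were higher and 2 lower, with a median of -0.16. Among all tested genes 18.4% were higher and 22.8% lower. Without RPR2 replicate 3, 3 genes of the network were higher and 3 lower. Max, the partner of MYC, was at 41.5 to 62.3 FPKM (median 51.5) in RPM tumours, against 23.7, 28.1 and 37.2 FPKM in RPR2 tumours. Mxd1, which competes with MYC for Max, was at 2.35 to 5.79 FPKM (median 3.47) in RPM tumours, against 11.6, 15.9 and 11.7 FPKM in RPR2 tumours. Without RPR2 replicate 3 neither Ttf1 nor Rpp21 passed the test as lower. Max did not overlap between groups and rose by 0.81 ± 0.15 (SE), and Mxd1 did not overlap and fell, with a difference of -1.60 ± 0.23 (SE).

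Some members share sequence with other genes, and the value of each depends on how the authors' counting divided shared reads. Processed pseudogenes matching at least 90% over at least 300 bases were found for 13 members, in 23 gene identifiers of the table. For Npm1 a pseudogene, Gm14681, with 97.4% identity over 420 bases, was at 325 to 619 FPKM in RPM, against 85.9, 85.5 and 175 FPKM in RPR2, up to 24.6% of the sum of Npm1 and its copies in RPM and 22.5% in RPR2. For Mrto4 the copy held up to 11.2% of the sum in RPM and 0 in RPR2. Wdr12 also matched a protein-coding gene, Pms1 (93.9% identity over 1276 bases), at 1.35 to 4.44 FPKM in RPM, against 4.15, 3.57 and 1.89 FPKM in RPR2. Adding all the pseudogenes to their members, but not Pms1, left 41 higher and 1 lower. Several members overlap genes on the opposite strand, and the strand setting of the counting is not given in the sources used here. The levels of the partners were, for example, on average 107 FPKM in RPM and 78.8 FPKM in RPR2 for Idh3b (beside Nop56). Beside Bop1 they were 11 FPKM in RPM and 30.3 FPKM in RPR2 for Mroh1, and 15.3 FPKM in RPM and 3.79 FPKM in RPR2 for Scx. Noxo1, beside Tbl3, averaged 0.863 FPKM in RPM and 38.8 FPKM in RPR2. How much of each partner overlaps the member was not measured, so the values of these members are uncertain. Small nucleolar RNA genes lie inside 7 members (Ncl, Nop56, Nop58, Dkc1, Wdr43, Gnl3 and Ppan), 21 in all, and they were not measured by these poly(A)-selected libraries.

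Positions of the leading members on GRCm38 (GENCODE) are as follows. Polr1b (ENSMUSG00000027395) lies on the plus strand of chromosome 2 from 129100995 to 129126594. Nolc1 (ENSMUSG00000015176) lies on the plus strand of chromosome 19 from 46075863 to 46085530, and Fbl (ENSMUSG00000046865) on the plus strand of chromosome 7 from 28169710 to 28179269. Nhp2 (ENSMUSG00000001056) lies on the plus strand of chromosome 11 from 51619735 to 51623714, where Npm1 (ENSMUSG00000057113) is on the minus strand from 33152287 to 33163206. Wdr43 (ENSMUSG00000041057) lies on the plus strand of chromosome 17 from 71615895 to 71659031. Utp20 (ENSMUSG00000004356) lies on the minus strand of chromosome 10 from 88746607 to 88826804, and Nop16 (ENSMUSG00000025869) on the minus strand of chromosome 13 from 54584185 to 54590090. Values are per whole gene, over all its annotated exons. The members lie on 19 chromosomes.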

How the data were processed

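RNA from 14 mouse lung tumours, 11 RPM and 3 RPR2, was measured by RNA-seq. Per the labels' protocols, RNA was extracted with a column kit and stranded libraries were made after oligo(dT) selection; the tissue was fresh or frozen, and reads came from one end of each fragment. The authors deposited 1 table of FPKM values per gene and library, and mm10, Bowtie 1.0.1 and RSEM 1.2.12 are listed, per the submitters' processing notes, without roles or settings. RSEM shares out ambiguous reads between genes, so values of members with near-identical copies depend on that sharing. Annotation release and strand setting: not given in the sources used here. A reporter listed at 0 in all libraries was left out. Symbols were found for 46005 of 46517 identifiers, and groups came from the genotype labels and source names.

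Values were analysed as log2(FPKM + 1), a scale that understates changes of low genes. Genes with at least 1 FPKM in at least 3 of the libraries compared entered limma 3.58.1 (R 4.3.3, empirical Bayes with trend, two-sided, Benjamini-Hochberg over all tested genes, threshold 0.05): 15719 genes for RPM against RPR2 and 14862 within RPM. All libraries of a comparison entered its fit with no covariate. The scripts were tested on simulated data with known changes. Exact permutation tests used SciPy 1.17.1 in Python 3.11.15, and copies were found with BLAST 2.17.0. The members and lists were chosen with earlier results of these data known. Values are given for every member, for the gene with the smallest p in each direction among those called in each other pathway list, and for Myc, Mycl and Mycn. The leading gene of 1 pathway list is not reported here. The labels do not say whether each tumour came from a different mouse, so p-values measure the spread between these tumours, and RPM replicates 6 and 7, and 10 and 11, share a number in their titles. The alternatives changed the pseudocount (0.1 or 0.01), the filter (none, or a mean of at least 5 FPKM) and the scaling (TPM, median-of-ratios or quantile), and used array weights, an exact Wilcoxon test, LSL/LSL tumours only, averaging tumours that share a title number, adding pseudogenes, and leaving out each library in turn. Depth limits the precision only of low genes, and intervals from reads would cover counting error only.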

Additional observations from a re-analysis of the deposited data

Results flagged for a closer look

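Nop16, a large-subunit processing gene, was low in 1 LSL/LSL tumour: RPM replicate 9 had 55.0 FPKM, and the other 8 LSL/LSL tumours had 78.0 to 109 FPKM. The gap to the nearest tumour was 0.510 of the range of the 9 tumours, above Dixon's 95% critical value of 0.493. It was the only one of 45 members past that value, and chance flags about 1 in 20 groups. The same tumour was the lowest RPM tumour for 19 members, and it still lay above all RPR2 tumours for Nop16.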

How the results depend on the processing

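For RPM against RPR2, 34 of the 45 members kept their call in all 27 alternatives, and the number of members higher stayed between 35 (TPM) and 43 (array weights). The single lower call, Utp20, was lost (0 members lower) with pseudocounts of 0.1 and 0.01, with no filter, under TPM scaling, in the exact Wilcoxon test, with tumours sharing a title number averaged and with LSL/LSL tumours only; over the fits that leave out 1 library, the number lower was 0 to 1. Imp3 turned to -0.016 under TPM scaling. Among all tested genes, 1878 were higher under TPM scaling, against 2897 as reported, and 6577 (array weights) or 2171 (filter at a mean of 5 FPKM) were lower, against 3586. By Myc allele no member passed under any of 17 alternatives, and Polr1b ran from -0.0442 without RPM replicate 2 to 0.847 without replicate 4, fits in which the lone LSL/+ tumour is assumed to vary like the others. The members rising with Myc numbered 22 under TPM scaling, 0 under median-of-ratios or quantile scaling, 8 with array weights, 0 without the 2 tumours farthest in Myc, and 0 to 5 over the fits that leave out 1 tumour, against 4 as reported. Partner differences without RPR2 replicate 3, a setting added after seeing the data, turned to -0.26 for Dkc1 over Nop10 and -0.40 for Bop1 over Wdr12. The cause of these changes was not tested. With 3 RPR2 tumours, 1 of which stands apart, leaving out a single library lost the calls of Utp20, Polr1c, Polr1a, Utp14a and Wdr75. Each of these calls was also lost with every library kept, Wdr75 in the exact Wilcoxon test and the others under TPM scaling. Depth does not limit the members, whose levels are all at least 1 FPKM.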
